A study of Mus musculus with 8 samples.

Results

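The integrated stress response and amino acid synthesis genes were followed here as a set of 10 members: Atf4, Ddit3, Trib3, Chac1, Sesn2, Asns, Psat1, Phgdh, Shmt2 and Pycr1. They were picked by gene symbol from a table of 28431 genes, with earlier results of these data known, and all 10 passed the filter on low counts. PolyA RNA had been sequenced from mouse embryonic stem cells with a MERVL::EGFP reporter, which lights up when a retroelement of early embryos is active. The series depleted Chaf1a, which encodes a CAF-1 histone chaperone subunit, alone or together with mDux, a transcription factor of cleavage-stage embryos.

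All cells were grown on gelatin with serum, leukemia inhibitory factor and the 2i inhibitors CHIR99021 and PD0325901, and all were transfected on consecutive days. The negative control group received 20 pmol of negative control siRNA. The Chaf1a siRNA group received 10 pmol of Chaf1a siRNA and 10 pmol of negative control siRNA. The remaining groups received 10 pmol of Chaf1a siRNA with 10 pmol of si308 or si309, which are pools of siRNA diced from long RNA against different stretches of mDux; the label of 1 si309 library gives no dose. Each group had 2 libraries, described by the submitters as biological replicates. The p-values rest on the spread within these pairs over all groups, drawn towards the spread of the other genes tested.

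In the integrated stress response, kinases that sense starvation for amino acids, unfolded proteins in the endoplasmic reticulum, heme lack or double-stranded RNA phosphorylate the translation factor eIF2. General translation then slows while the mRNA of Atf4 is translated more, and the ATF4 protein switches on genes for amino acid synthesis, uptake and tRNA charging. CHOP, encoded by Ddit3, acts beside ATF4, and TRIB3, CHAC1 and SESN2 are among the products of its target genes. Levels of mRNA do not measure the amount of ATF4 protein, and in bulk RNA fewer cells expressing a gene and less RNA per cell cannot be told apart.

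ATF4 binds, with C/EBP partners, the C/EBP-ATF response element, searched here as TGATGNAA on both strands of RefSeq promoter windows (build GRCm38.p6) from 250 bases before to 50 bases after a start. All 10 members had a window. The element was found for 4 members, Asns, Trib3, Chac1 and Pycr1, and in 3.97% of all 32851 windows. The sequences around these 4 matches follow because Asns, Trib3, Chac1 and Pycr1 share the element while their RNA levels differed in direction and size. Each is printed along the strand of its gene with the element in capitals; in Trib3 and Chac1 the element lies on the opposite strand.
Asns, chr6:7693214-7693243, minus strand: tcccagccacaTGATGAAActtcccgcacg
Trib3, chr2:152344028-152344057, minus strand: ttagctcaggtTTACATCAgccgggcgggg
Chac1, chr2:119351019-119351086, plus strand: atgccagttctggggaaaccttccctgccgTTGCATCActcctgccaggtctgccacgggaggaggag
Pycr1, chr11:120643814-120643881, minus strand: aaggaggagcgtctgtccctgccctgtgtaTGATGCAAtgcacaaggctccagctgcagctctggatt

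Relative to the RefSeq start of its window, the match began at base -23 in Asns, -103 in Pycr1, -193 in Chac1 and 15 in Trib3. The GENCODE coordinates given below start these 4 genes at other bases. By them the Asns match lies inside the gene and the Trib3 match lies before its start. Of the other motifs searched, the NF-Y box CCAAT was found for 7 members and in 37.4% of windows. The cyclic AMP response element TGACGTCA was in 1.79% of windows and the ER stress element in 0.119%, and neither was in a member's window. The ER stress element contains the letters of the NF-Y box. A match is a run of letters and was not tested for binding.

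Library totals were 26042851 to 42375685 gene counts. Chaf1a itself was at 139 ± 0.655 CPM (read counts scaled to library size; SD, n = 2) in the negative control and at 29.6 ± 1.45 with Chaf1a siRNA, 34.6 ± 0.837 with si308 added and 31.5 ± 3.06 with si309 added. The embryonic stem cell markers, all 10 with counts in every group, summed to 6775 to 6867 CPM in the negative control and to 4562 to 4609 CPM with Chaf1a siRNA. Of these 10, 8 were lowered and 2 raised by Chaf1a siRNA, by edgeR, beside 30.8% and 36.7% of all genes tested. Two-cell-like markers summed to 1.61 to 1.85 CPM in the negative control, 1121 to 1169 with Chaf1a siRNA, 1.6 to 1.99 with si308 and 28.9 to 30.8 with si309.

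**Figure D1:**
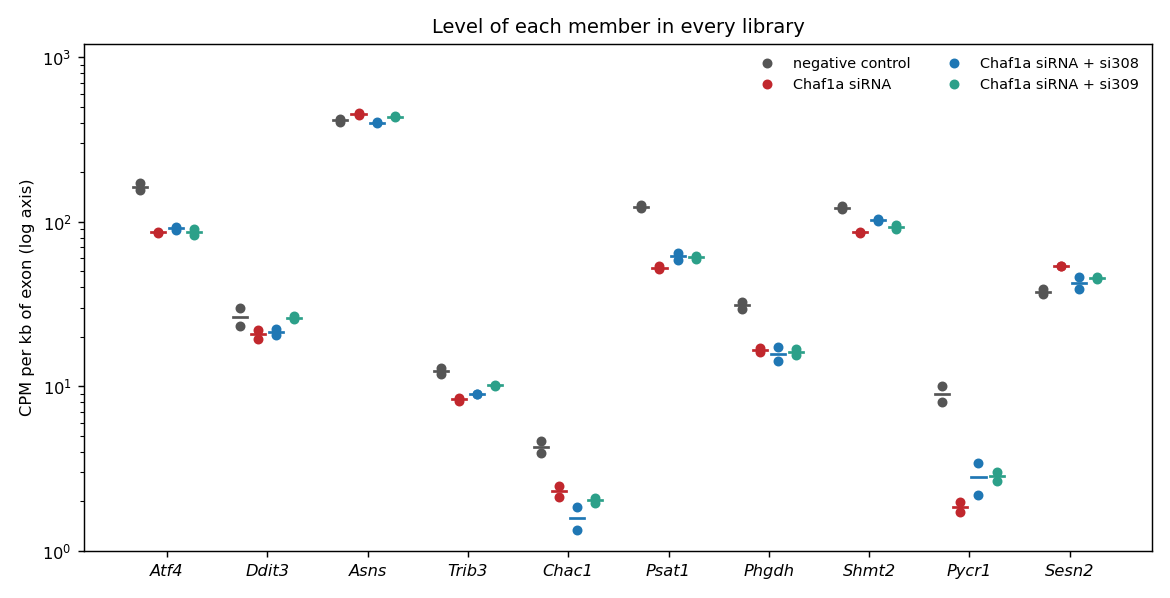
Levels of the 10 members in CPM per kb of exon (log axis) in each of the 8 libraries. Points are libraries, colours are siRNA groups and short lines are group means of 2 libraries; Asns stands highest in every group, and Pycr1 and Chac1 lowest.

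Per kb of exon, Asns was the most abundant member in the negative control, at 412 ± 9.35 CPM per kb (SD, n = 2). Atf4 followed at 163 ± 11.2 CPM per kb, then Psat1 at 123.5 ± 2.82 and Shmt2 at 122 ± 4.04, whose libraries overlapped. Sesn2 stood at 37.6 ± 1.91 CPM per kb, Phgdh at 31 ± 1.96 and Ddit3 at 26.5 ± 4.71, and the last pair overlapped. Trib3 at 12.4 ± 0.74, Pycr1 at 9.02 ± 1.47 and Chac1 at 4.27 ± 0.509 CPM per kb were the scarcest. With Chaf1a siRNA the order shifted: Atf4 at 86.5 ± 0.817 and Shmt2 at 86.2 ± 0.63 CPM per kb overlapped, Sesn2 at 53.8 ± 0.26 stood level with Psat1 at 52.5 ± 1.23, and Pycr1 at 1.85 ± 0.195 fell below Chac1 at 2.3 ± 0.234. Summed over the members, the negative control libraries held 926 and 954 CPM per kb and the Chaf1a siRNA libraries 782 and 776. Asns made up 45.2% and 42.4% of that sum in the negative control libraries and 58% and 57.6% in the Chaf1a siRNA libraries.

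With Chaf1a siRNA, 8 of the 10 members fell against the negative control and 2 rose, by edgeR's quasi-likelihood test with an adjusted p under 0.05. The 8 that fell were Atf4, Ddit3, Trib3, Chac1, Psat1, Phgdh, Shmt2 and Pycr1, and the 2 that rose were Sesn2 and Asns. Among all 17977 genes tested, 30.8% fell and 36.7% rose. The members' median log2 change was -0.74, from -2.28 to 0.52, and the median of all genes was 0.05. Scaled by library totals instead of TMM factors, the median of all genes moved to 0.22, 8128 genes rose and 3788 fell in place of 6597 and 5545, and the members' median was -0.57.

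**Figure D2:**
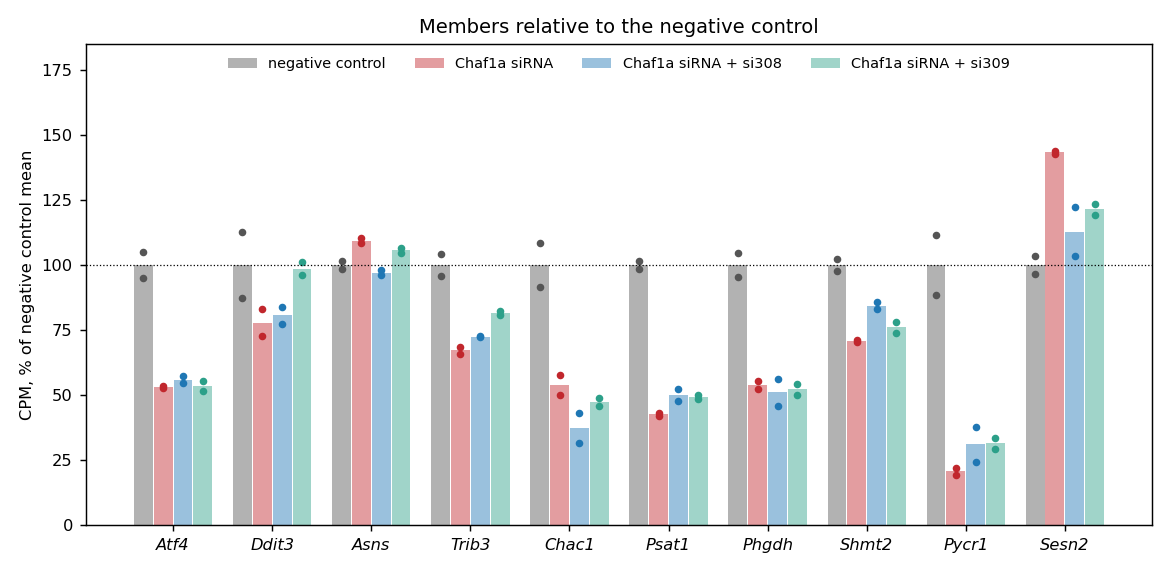
CPM of each member as a percentage of its negative control mean. Bars are means of 2 libraries starting at 0, points are the libraries and the dotted line marks 100%; Atf4, Psat1, Phgdh, Chac1 and Pycr1 stay at or below 55.9% in the 3 depleted groups, while Sesn2 stands above 100% in each of them.

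Atf4, the transcription factor of the pathway (chr15:80255184-80257541, plus strand; member coordinates are those of GENCODE release 21 for GRCm38), had 267 and 294 CPM in the negative control libraries and 148 and 150.1 CPM with Chaf1a siRNA. With the mDux pools it had 160.5 and 153 CPM (si308) and 155 and 144 CPM (si309). The negative control libraries stood above the other 6, and the depleted groups lay within a narrow range of one another. Chaf1a siRNA lowered Atf4 by a log2 change of -0.91 ± 0.053 (SE; edgeR adjusted p = 2.3e-12), which left 53.1% of the negative control mean.

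Ddit3 (chr10:127290774-127296288, plus strand) encodes CHOP, a transcription factor linked to cell death under lasting stress. In GENCODE a further gene model of the same name overlaps 2925 of its bases on the same strand. The genes counted held no other entry named Ddit3. Their annotation is not given, so whether reads there were split is not known. Ddit3 had 20.6 and 26.6 CPM in the negative control and 19.6 and 17.2 CPM with Chaf1a siRNA. These groups did not overlap, but the distance from the lower control library was small. The log2 change was -0.36 ± 0.106 (edgeR adjusted p = 0.0046). The call was lost under library totals (edgeR adjusted p = 0.11), without negative control replicate 1 (edgeR adjusted p = 0.22) and without Chaf1a siRNA replicate 1 (edgeR adjusted p = 0.062).

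Trib3 (chr2:152337422-152344032, minus strand), a pseudokinase that restrains ATF4 and CHOP, had 24.1 and 26.2 CPM in the negative control and 16.6 and 17.2 CPM with Chaf1a siRNA. It fell by 0.58 ± 0.087 on the log2 scale (edgeR adjusted p = 4.8e-06). Chac1 (chr2:119351229-119354381, plus strand), which breaks down glutathione, was the scarcest member, with 69 to 250 counts a library. It had 6.4 and 7.58 CPM in the negative control and 3.49 and 4.04 CPM with Chaf1a siRNA, a log2 change of -0.90 ± 0.172 (edgeR adjusted p = 8.4e-05). The libraries of both genes were separated between these groups.

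Sesn2 (chr4:132492032-132510501, minus strand), a leucine sensor that holds back mTORC1, moved the other way. It had 126 and 135 CPM in the negative control and 186 and 188 CPM with Chaf1a siRNA, and every Chaf1a siRNA library stood above every control library. The log2 change was 0.52 ± 0.062 (edgeR adjusted p = 2.1e-07). A noncoding gene, Gm12981, lies over 6089 bases of Sesn2 on the same strand, so reads in that stretch cannot be assigned to either from the counts alone.

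Asns (chr6:7675169-7693254, minus strand), asparagine synthetase, had 904 and 876 CPM in the negative control and 981 and 965 CPM with Chaf1a siRNA. The groups did not overlap, and the change was small, 0.13 ± 0.04 on the log2 scale (edgeR adjusted p = 0.007). The call was lost in a fit of these groups alone (edgeR adjusted p = 0.052) and without Chaf1a siRNA replicate 0 (edgeR adjusted p = 0.067).

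Serine is made from a glycolytic intermediate by PHGDH, PSAT1 and PSPH in turn. Phgdh (chr3:98313170-98339990, minus strand) had 56.1 and 61.3 CPM in the negative control and 32.5 and 30.6 CPM with Chaf1a siRNA, a log2 change of -0.89 ± 0.085 (edgeR adjusted p = 6e-09). Psat1 (chr19:15904678-15947337, minus strand) had 357 and 369 CPM in the negative control and 152 and 157 CPM with Chaf1a siRNA. Its log2 change was -1.23 ± 0.05 (edgeR adjusted p = 4.7e-15). Both enzymes' control libraries stood well above all others, and Psat1 was left at 42.5% of its control mean. Phgdh has 19 copies in the annotation (at least 90% identity over 200 bases), most of which are not among the genes counted. The counting could have split reads with those that are, of which Gm13337 and Gm9252 held 4 counts each. The copy ENSMUSG00000082280, singled out after its values were seen, is 96.2% identical over 1596 bases. It held 3158 counts in all against 9780 for Phgdh. That copy went from 19.5 ± 1.29 to 10.5 ± 0.226 CPM (SD, n = 2) with Chaf1a siRNA.

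Shmt2 (chr10:127517123-127522444, minus strand), the mitochondrial enzyme that turns serine into glycine and a one-carbon unit, had 274 and 287 CPM in the negative control and 198 and 199.7 CPM with Chaf1a siRNA. It fell by 0.50 ± 0.047 on the log2 scale (edgeR adjusted p = 5.1e-09). Pycr1 (chr11:120635712-120643769, minus strand), which completes proline synthesis in mitochondria, had 30.1 and 37.9 CPM in the negative control and 7.5 and 6.47 CPM with Chaf1a siRNA. It showed the largest change of the 10 members in this comparison, with a log2 change of -2.28 ± 0.155 (edgeR adjusted p = 2.9e-11) and 20.6% of the control mean left. In the authors' deposited table, which was computed from the same libraries, the members of this comparison also divided into 2 raised and 8 lowered; its log2 fold changes were -1.94 for Pycr1 and -0.94 for Atf4.

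**Figure D3:**
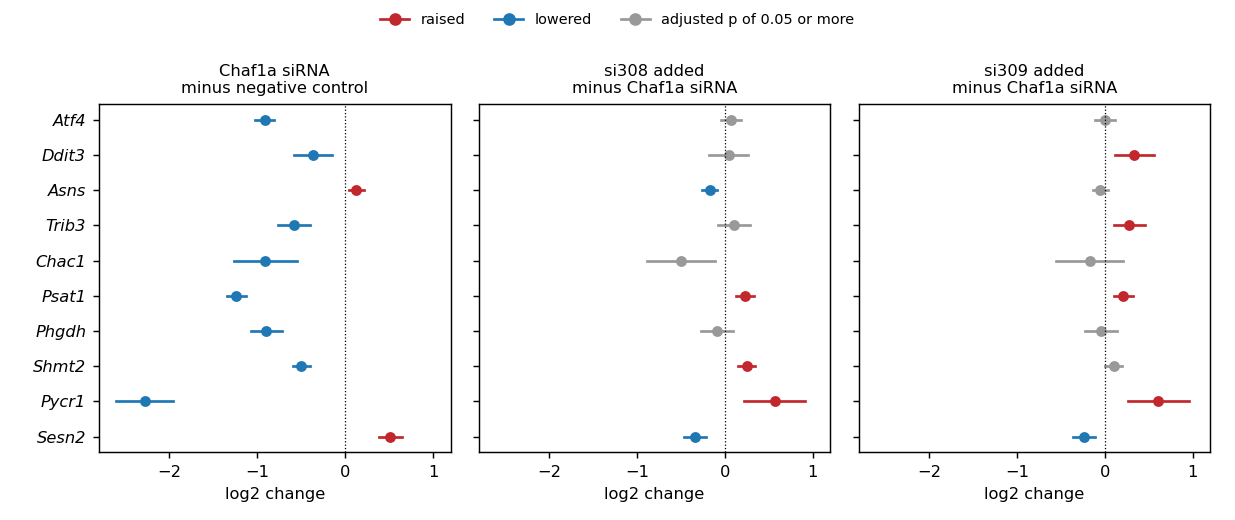
Fitted log2 changes of the 10 members with 95% intervals for Chaf1a siRNA minus negative control (left) and for each mDux pool added to Chaf1a siRNA (middle, right). Red and blue mark members raised and lowered at an adjusted p under 0.05 and grey the others; the changes on the left reach -2.28, while those in the middle and on the right lie between -0.50 and 0.61.

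Adding si308 to Chaf1a siRNA raised 3 members, Psat1, Shmt2 and Pycr1, and lowered 2, Asns and Sesn2. Among all genes tested 9.91% rose and 12.0% fell. The members' median log2 change was 0.06 and that of all genes 0.01. Each comparison of a pool with Chaf1a siRNA shares the Chaf1a siRNA libraries with the comparison above, so a member measured low in them moves in opposite directions in both.

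Psat1 had 189 and 173 CPM with si308 against 152 and 157 CPM with Chaf1a siRNA, a log2 change of 0.23 ± 0.05 (edgeR adjusted p = 0.0019). Shmt2 had 239.9 and 233 CPM with si308, a log2 change of 0.25 ± 0.047 (edgeR adjusted p = 0.00042). For both genes the si308 libraries lay between those of Chaf1a siRNA and the negative control. Pycr1 had 12.9 and 8.28 CPM with si308, a log2 change of 0.57 ± 0.168 (edgeR adjusted p = 0.018). The si308 libraries of Pycr1 differed by more than the nearer one did from Chaf1a siRNA. That call was lost without si308 replicate 0 (edgeR adjusted p = 0.36), without Chaf1a siRNA replicate 1 (edgeR adjusted p = 0.13) and under DESeq2 (adjusted p = 0.17).

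Sesn2 had 135 and 159.5 CPM with si308 and fell by 0.34 ± 0.061 on the log2 scale (edgeR adjusted p = 0.00027). Asns had 871 and 856 CPM and fell by 0.17 ± 0.04 (edgeR adjusted p = 0.0031). Both si308 libraries of each gene were below both Chaf1a siRNA libraries, and those of Asns were also below the negative control. Chac1 had 2.21 and 3.01 CPM with si308, and its log2 change of -0.50 ± 0.187 missed the threshold (edgeR adjusted p = 0.06); with the replicate number as a block it passed (edgeR adjusted p = 0.037), and it also passed without the filter on low counts, without negative control replicate 0 and without si308 replicate 1 (edgeR adjusted p = 0.044, 0.048 and 0.026). Atf4 changed by 0.07 ± 0.054 (95% interval -0.04 to 0.18; edgeR adjusted p = 0.37).

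Adding si309 to Chaf1a siRNA raised 4 members, Ddit3, Trib3, Psat1 and Pycr1, and lowered Sesn2. Among all genes tested 3.76% rose and 7.06% fell. The members' median log2 change was 0.05 and that of all genes 0.01. Leaving out 1 of the 8 libraries at a time gave 0 to 4 members raised and 0 to 1 lowered, and DESeq2 raised 1 and lowered 1.

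Ddit3 had 22.7 and 23.9 CPM with si309 against 19.6 and 17.2 CPM with Chaf1a siRNA, a log2 change of 0.34 ± 0.105 (edgeR adjusted p = 0.041). Trib3 had 20.7 and 20.3 CPM with si309, a log2 change of 0.28 ± 0.087 (edgeR adjusted p = 0.04). Neither gene's libraries overlapped those of Chaf1a siRNA. Both calls were lost under DESeq2 (adjusted p = 0.098 and 0.13), with TMM factors from tested genes (edgeR adjusted p = 0.05 and 0.051) and without either si309 library, where the edgeR adjusted p of Ddit3 was 0.096 and 0.26 and that of Trib3 was 0.18 and 0.16. Without Chaf1a siRNA replicate 1 they were 0.32 and 0.13 by edgeR, and without Chaf1a siRNA replicate 0 the edgeR adjusted p of Trib3 was 0.21; without the filter on low counts it was 0.055.

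Psat1 had 175 and 182 CPM with si309, a log2 change of 0.21 ± 0.05 (edgeR adjusted p = 0.0069). Pycr1 had 9.97 and 11.4 CPM, a log2 change of 0.61 ± 0.167 (edgeR adjusted p = 0.02). Sesn2 had 161 and 156 CPM and fell by 0.24 ± 0.061 on the log2 scale (edgeR adjusted p = 0.012). The si309 libraries of these genes lay between the Chaf1a siRNA and the negative control libraries. Without si309 replicate 1 the edgeR adjusted p was 0.12 for Psat1, 0.2 for Pycr1 and 0.14 for Sesn2. Without Chaf1a siRNA replicate 0 it was 0.1 for Psat1 and 0.063 for Sesn2, and without Chaf1a siRNA replicate 1 it was 0.17 for Pycr1 and 0.088 for Sesn2; under DESeq2 the adjusted p of Pycr1 was 0.21. Atf4 changed by 0.005 ± 0.054 (95% interval -0.11 to 0.12; edgeR adjusted p = 0.97).

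Between the pools, si309 minus si308, edgeR called 0 of the 10 members raised and 0 lowered, beside 2.39% and 1.27% of all genes. At an unadjusted p under 0.05 edgeR gave 2 raised and 1 lowered, and DESeq2 with adjusted p-values gave 1 raised and 0 lowered. The shares of all genes above hold for the adjusted edgeR calls only, and those for these other counts are not given here. The unadjusted calls were Ddit3 (log2 difference 0.30, 95% interval 0.08 to 0.51), Asns (0.12, 0.04 to 0.20) and Shmt2 (-0.15, -0.25 to -0.05). DESeq2 called Asns (adjusted p = 0.014). Without 1 library at a time, edgeR gave 0 to 1 members raised and 0 to 1 lowered: without either negative control library Asns was raised and Shmt2 lowered (edgeR adjusted p = 0.037 to 0.043), and without si308 replicate 1 Sesn2 was raised (edgeR adjusted p = 0.04).

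Against the negative control, the groups given a pool as well as Chaf1a siRNA kept most members low. With si308, 8 members were lowered and 1 raised, beside 28.5% and 33.1% of all genes. With si309, 7 were lowered and 1 raised, beside 30.3% and 35.0% of all genes. Scaled by library totals, the split was 6 lowered and 2 raised with si308 and 6 lowered and 2 raised with si309. These comparisons share the negative control libraries, so their members' changes are not independent of the first comparison. Atf4 stood at 55.9% of the control mean with si308 and at 53.3% with si309, Psat1 at 49.9% and 49.2%, Phgdh at 51% and 52.2%, and Pycr1 at 31.1% and 31.4%.

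Sesn2 was the raised member in both, by 0.18 ± 0.062 with si308 (edgeR adjusted p = 0.018), where its libraries overlapped those of the control, and by 0.28 ± 0.062 with si309 (edgeR adjusted p = 0.00048). The si308 call was lost under DESeq2 (adjusted p = 0.051), without si308 replicate 1 (edgeR adjusted p = 0.67) and without negative control replicate 0 (edgeR adjusted p = 0.14). Ddit3 stood at 80.5% of the control mean with si308 (edgeR adjusted p = 0.01; 0.2 under library totals, 0.37 without negative control replicate 1 and 0.079 without si308 replicate 1) and at 98.6% with si309 (edgeR adjusted p = 0.83). Shmt2 lost its si308 call under library totals (-0.085; edgeR adjusted p = 0.12). Asns differed from the control by -0.04 ± 0.04 with si308 and by 0.08 ± 0.04 with si309 on the log2 scale (edgeR adjusted p = 0.36 and 0.087); under library totals both passed as raised, at 0.12 with si308, a reversed sign, and at 0.26 with si309 (edgeR adjusted p = 0.01 and 6.5e-06). Without negative control replicate 0 the si309 value also passed (edgeR adjusted p = 0.039). Trib3 fell by 0.30 ± 0.084 with si309 (edgeR adjusted p = 0.0039), and the call was lost without negative control replicate 1 (edgeR adjusted p = 0.057) and under library totals (edgeR adjusted p = 0.22). In the authors' deposited table the counts were 0 raised and 8 lowered with si308, where Sesn2 had an adjusted p of 0.073, and 1 raised and 7 lowered with si309.

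Markers of other cell types moved with the groups as well. With si308 the sum of the two-cell-like markers was within 1.6 to 1.99 CPM, as given above, with Tdpoz3, Tdpoz4 and Tcstv1 at 0; of the 11 tested, 1 was raised and 2 were lowered against the negative control, by edgeR. The sum of the embryonic stem cell markers stayed down with si308, at 4806 to 4952 CPM, and with si309, at 4567 to 4587 CPM. Against the negative control 8 of these 10 were lowered with each pool, by edgeR. In the same comparisons 1 was raised with si308 and 2 with si309. Fibroblast markers summed to 12.3 to 14.4 CPM in the negative control, with Col3a1, Dcn, Postn and S100a4 at 0, and to 112 to 116, 79.3 to 84.3 and 90.7 to 96 CPM with Chaf1a siRNA, si308 and si309, where all 10 had counts. Primitive endoderm markers summed to 157 to 186 CPM in the negative control, with Sox7 at 0, and to 325 to 344, 258 to 277 and 282 to 298 CPM in those groups, where all 9 had counts. Of these 9, 7, 6 and 5 were raised and 1 was lowered in the same groups against the negative control, by edgeR. Of the 8 fibroblast markers tested, 7 were raised and 0 lowered in each. Among all genes 36.7% were raised and 30.8% lowered with Chaf1a siRNA against the negative control. The shares were 33.1% and 28.5% with si308 added, and 35.0% and 30.3% with si309 added. The part of these cell types in the members' changes was not tested.

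The genes nearest to Atf4 in their changes against the negative control, over the 3 depleted groups and among 8994 candidates, included Zfp710, Suclg2, Cacybp and Timeless. Their root mean square differences from Atf4 were 0.013, 0.021, 0.025 and 0.029 on the log2 scale. Among the members Phgdh was nearest, at 0.084, then Psat1 at 0.218, and Sesn2 was farthest, at 1.22. The measure rests on 3 points that share the negative control libraries.

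Other genes of the pathway were grouped into lists written from general knowledge, and their counts are out of the genes tested. For Chaf1a siRNA minus negative control, every list count stands beside 36.7% of all 17977 genes raised and 30.8% lowered, by edgeR. Under library totals 8128 of all genes rose and 3788 fell. Beside the genes given by the naming rule, genes behind a small count are named in brackets, chosen after their values were seen. Aminoacyl-tRNA synthetases of the cytosol, which charge tRNAs with amino acids, formed the list that moved most evenly with Chaf1a siRNA: 18 of 20 fell and 1 rose (Wars), with a median log2 change of -0.49 beside 0.05 for all genes. The median was -0.32 under library totals, and 18 fell in all 17 settings run. Sars, the serine enzyme, went from 321 to 137 CPM (log2 change -1.23; edgeR adjusted p = 5.1e-15) and Lars, the leucine enzyme, from 568 to 285 CPM (-0.99; edgeR adjusted p = 2.5e-14). Aars, for alanine, fell by 0.87 and Nars, for asparagine, by 0.70 on the log2 scale. With si308 added, 7 rose, Sars among them to 168.5 CPM, and 1 fell (Iars) against Chaf1a siRNA, beside 9.91% and 12.0% of all genes. The count raised ranged from 2 to 10 over the 17 settings run. With si309 1 rose (Sars), or up to 3 in those settings, and 1 fell (Iars), beside 3.76% and 7.06% of all genes. Against the negative control 18 were lowered with each pool, or 16 with each under library totals. Among all genes 28.5% were lowered with si308 and 30.3% with si309.

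The other enzymes of serine, glycine and one-carbon metabolism fell with Chaf1a siRNA in 13 of 20 cases and rose in 2 (Gldc and Aldh1l1), with a median of -0.35. Under library totals 12 fell and 3 rose, and the median was -0.19. Gcat, which makes glycine from threonine breakdown, went from 109.7 to 43.1 CPM (log2 change -1.35; edgeR adjusted p = 3.6e-14). Psph, which releases serine after PSAT1, fell by 0.89, the cytosolic Shmt1 by 0.78 and the mitochondrial folate enzyme Mthfd1l by 0.87 on the log2 scale. Gcat rose by 0.46 when si308 was added (edgeR adjusted p = 9.5e-06) and by 0.24 when si309 was added (edgeR adjusted p = 0.016). Of the 20, 6 rose and 2 fell when si308 was added, beside 9.91% and 12.0% of all genes. When si309 was added 5 rose and 3 fell, beside 3.76% and 7.06% of all genes.

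Of 17 enzymes of proline, aspartate, alanine and glutamate metabolism, Chaf1a siRNA raised 4 (among them Glul, Glud1 and Bcat1) and lowered 6. Among all genes 36.7% rose and 30.8% fell. Under library totals 9 of the enzymes were raised and 6 lowered. Got1, an aspartate aminotransferase, fell by 0.62 and Gpt2, an alanine aminotransferase, by 0.65 on the log2 scale. Glul, glutamine synthetase, went from 65.4 to 174 CPM with Chaf1a siRNA (log2 change 1.42; edgeR adjusted p = 3e-15) and to 83.3 and 99.6 CPM with si308 and si309. Glul thus fell by 1.06 and 0.81 against Chaf1a siRNA (edgeR adjusted p = 7.8e-13 and 1.2e-10).

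**Figure D4:**
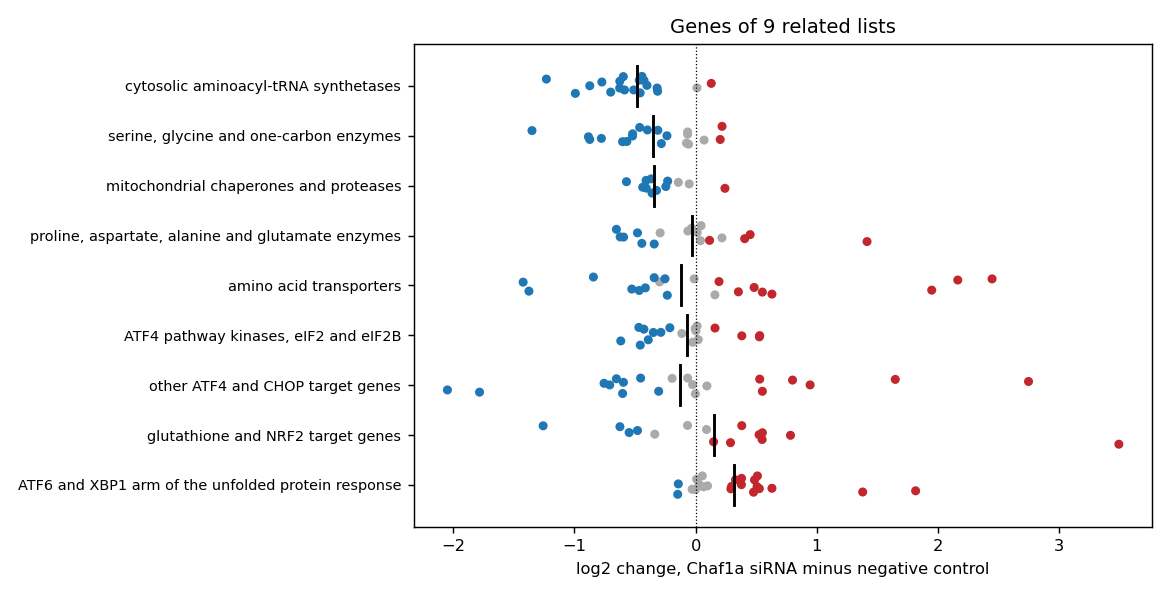
Fitted log2 changes with Chaf1a siRNA against the negative control for the tested genes of 9 lists. Each point is a gene, red raised, blue lowered and grey at an adjusted p of 0.05 or more, spread vertically for sight only; black lines are list medians, lowest for the tRNA synthetases at -0.49 and highest for the ATF6 and XBP1 arm at 0.31.

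Upstream of ATF4, 18 genes for eIF2 kinases, eIF2, eIF2B and their regulators were tested. With Chaf1a siRNA 4 rose (Eif2ak1, Eif2ak3, Ppp1r15a and Dnajc3) and 8 fell, beside 36.7% and 30.8% of all genes. Under library totals 8 rose and 7 fell. Their median went from -0.07 to 0.10, and that of all genes from 0.05 to 0.22. Among those lowered were Eif2s1, the eIF2 subunit that is phosphorylated (-0.46), Eif2b3 (-0.62) and Eif2b5 (-0.43), subunits of the eIF2 exchange factor, and Ppp1r15b, which guides eIF2 dephosphorylation (-0.47). Of 16 partner and related transcription factors 7 rose and 4 fell (Nupr1, Nfe2l2, Cebpg and Xbp1), or 8 and 1 (Nupr1) under library totals. Atf3 went from 1.72 to 11.9 CPM (log2 change 2.75) and to 5.57 and 8.37 CPM with si308 and si309. Atf5, the closest relative of Atf4, rose by 1.65 from 10.3 to 32.6 CPM, and Jun rose by 2.35. Nupr1, a stress-induced chromatin cofactor, went from 25.5 to 6.14 CPM (log2 change -2.05; edgeR adjusted p = 2.3e-11) and to 9.16 and 8.78 CPM with the pools.

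Among 20 other targets of ATF4 and CHOP, a list that also holds Atf3, Atf5 and Nupr1, 6 rose and 9 fell with Chaf1a siRNA. Its median was -0.13, and 0.04 under library totals. Jdp2, an AP-1 repressor, fell by 1.78 on the log2 scale, from 11.8 to 3.42 CPM. Of 20 amino acid transporters 8 were raised and 9 lowered, beside 36.7% and 30.8% of all genes. Under library totals 10 were raised and 7 lowered. Slc7a3, a carrier of cationic amino acids, went from 176 to 68 CPM (log2 change -1.38; edgeR adjusted p = 1.1e-14), and Slc1a4, a carrier of neutral amino acids, fell by 0.84. Slc7a7 went from 9.34 to 51.1 CPM (2.45; edgeR adjusted p = 7.8e-15), and Slc7a2 rose by 2.16.

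The arm of the unfolded protein response that runs through ATF6 and XBP1 moved the other way from most members. With Chaf1a siRNA 13 of its 22 genes rose and 2 fell (Pdia4 and Pdia6), with a median log2 change of 0.31, and under library totals 20 rose. Dnajb9, an HSP70 partner of the endoplasmic reticulum, went from 13.7 to 35.7 CPM (log2 change 1.38; edgeR adjusted p = 1e-11). Derl3, of the degradation pathway there, rose by 1.82, Creld2 by 0.63 and the disulfide isomerase Pdia3 by 0.51. Adding si308 lowered 13 of the 22 and raised 1 (Sec61b), beside 12.0% and 9.91% of all genes. Adding si309 lowered 1 (Dnajb9) and raised 0, beside 7.06% and 3.76% of all genes. At an unadjusted edgeR p under 0.05, si309 lowered 8 and raised 1, and the share of all genes at that threshold is not given here. The count lowered by si308 ranged from 7 to 14 over the 17 settings run. Dnajb9 fell to 14.7 CPM with si308 and 15.9 CPM with si309 (edgeR adjusted p = 1.2e-10 and 6.6e-10 against Chaf1a siRNA).

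**Figure D5:**
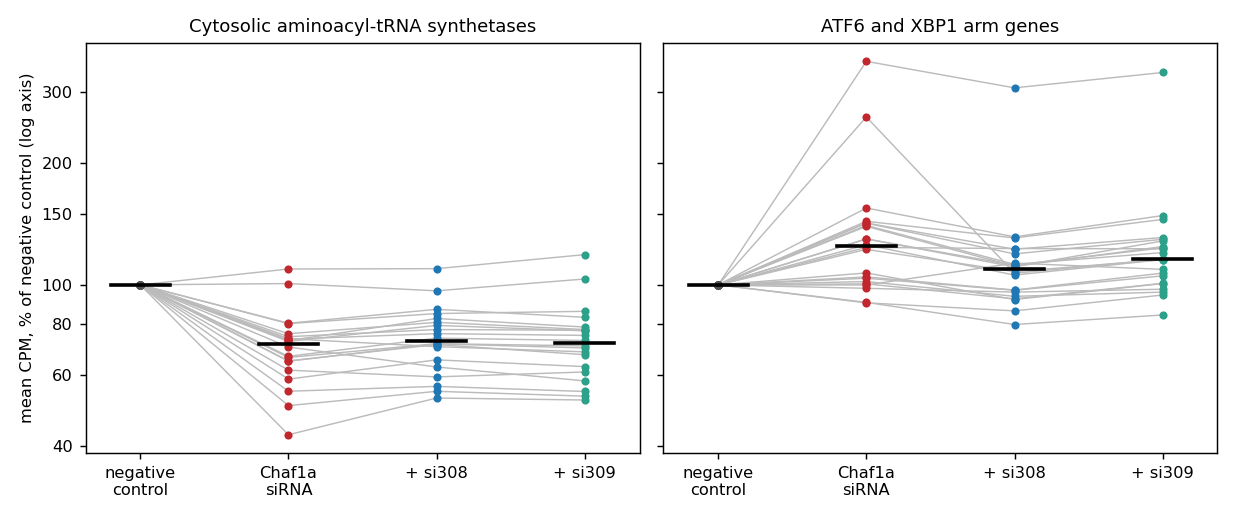
Mean CPM of each gene in the 4 groups as a percentage of its negative control mean (log axis), for 20 cytosolic tRNA synthetases (left) and 22 genes of the ATF6 and XBP1 arm (right). Grey lines join the values of a gene and black bars are medians over genes; the synthetases stay below the control in every depleted group, except for Wars and, with si309, Hars, while 13 ATF6 and XBP1 arm genes rise with Chaf1a siRNA and 13, not matched gene by gene to those, fall when si308 is added.

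Of the 10 paralogs of members, 4 rose (Atf5, Trib1, Sesn3 and Cebpb) and 4 fell (among them Shmt1, Pycrl and Sesn1) with Chaf1a siRNA. Trib1 went from 7.64 to 19.6 CPM (log2 change 1.36; edgeR adjusted p = 1.5e-10) while Trib3 fell, and Sesn3 rose by 0.75 like Sesn2. Among 21 genes of the Sestrins and of mTORC1 amino acid sensing 7 rose and 7 fell, beside 36.7% and 30.8% of all genes. Under library totals 8 of them rose and 3 fell (Gatsl3, Wdr24 and Seh1l). Rragd, a GTPase that recruits mTORC1 to the lysosome, went from 77.4 to 169 CPM (log2 change 1.13; edgeR adjusted p = 3.5e-14), Seh1l of the GATOR2 complex that SESN2 binds fell by 0.55, and Gatsl3, an arginine sensor gene, fell by 1.25.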

How the data were processed

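The 10 members and the gene lists were chosen with earlier results of these data known. Reads were aligned with Novoalign 2.8 to mm10 and compared with DESeq2, per the submitters' processing notes; the read counter and its annotation are not given in the sources used here, and the use of strand in counting is not stated, though the library kit keeps it. The authors deposited raw read counts per gene and library. They also deposited 8 columns of regularised log2 values, which were not used, and log2 fold changes with adjusted p-values against the negative control; members' values from the latter are credited to the authors' deposited table. The table of repeats was not used here. Count columns are numbered 0 and 1 in a group and were assigned to groups only.

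The deposited counts went into edgeR 4.0.16 (R 4.3.3) with TMM factors from all 28431 genes, filterByExpr by group (17977 genes left), 1 mean per group, 4 residual degrees of freedom, the quasi-likelihood F test and Benjamini-Hochberg adjustment over all genes tested in each of 6 contrasts. The fit gave 0.00196 as common dispersion, with 17.1 prior degrees of freedom. Standard errors were taken from the F statistic and 95% intervals from its degrees of freedom. CPM used the TMM factors; CPM per kb also used the union of exons in GENCODE release 21, which held 27843 of the IDs. Copies were sought by BLAST of member transcripts (at least 90% identity over 200 bases). The fit was tested on simulated data.

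The genes named were the 10 members, Chaf1a, at most 4 genes of each list, those of lowest adjusted p for Chaf1a siRNA against the negative control, and the 5 genes with a mean of at least 10 CPM nearest to Atf4. Predicted-model names were left out of the last, and some genes that the rule gives are not reported here. Alternatives were DESeq2 1.42.0, its size factors, library totals, no filter, only the groups compared, robust dispersion, the replicate number as a block, each library left out, and, chosen after seeing the data, TMM factors from the tested genes. The main fit did not pair the samples by replicate number.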

Additional observations from a re-analysis of the deposited data

How the results depend on the processing

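Over the 16 other settings, the 8 members lowered by Chaf1a siRNA became 7 only where Ddit3 lost its call, and the median of the members stayed below 0 in each. Members raised by Chaf1a siRNA were 1 with only the groups compared. For si308 minus Chaf1a siRNA, 1089 genes rose under DESeq2 in place of 1782. For si309 minus Chaf1a siRNA, members raised were 1 under DESeq2 and 2 with TMM factors from tested genes, and genes raised were 419 under DESeq2 and 1198 with only the groups compared, in place of 676. For si309 minus si308, members raised were 2 without the filter, 1 under DESeq2 and 1 with only the groups compared, and 373 genes fell without the filter in place of 228. Under library totals, 2 members rose and 3275 genes fell for si308 minus negative control, and 2 members rose and 3556 genes fell for si309 minus negative control; under DESeq2 the first had 0 members raised. Library totals moved the median of all genes by over 0.1 in each contrast with the negative control; the cause was not tested.

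Reversed values were for si308 minus negative control Asns at 0.12 (library totals, where edgeR's adjusted p was 0.01), for si309 minus negative control Ddit3 at 0.15 (library totals), and for si309 minus Chaf1a siRNA Atf4 at -0.007 (TMM factors from tested genes). Leaving out 1 library also reversed some, with these ranges: for si308 minus Chaf1a siRNA Ddit3 (-0.044 to 0.142) and Phgdh (-0.233 to 0.054), for si309 minus Chaf1a siRNA Atf4 (-0.05 to 0.059) and Phgdh (-0.103 to 0.009), for si309 minus si308 Psat1 (-0.078 to 0.047), Sesn2 (-0.011 to 0.237), Phgdh (-0.097 to 0.189) and Pycr1 (-0.258 to 0.371), and for si309 minus negative control Ddit3 (-0.19 to 0.174). None of these had passed the threshold in the values as reported, and of the reversed values Asns alone passed it.

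Leaving out 1 library, members raised and lowered ranged from 1 to 2 and 7 to 8 for Chaf1a siRNA minus negative control, 2 to 3 and 2 to 3 for si308 minus Chaf1a siRNA, 0 to 4 and 0 to 1 for si309 minus Chaf1a siRNA, 0 to 1 and 0 to 1 for si309 minus si308, 0 to 1 and 7 to 8 for si308 minus negative control, and 1 to 2 and 6 to 7 for si309 minus negative control. Genes raised and lowered ranged from 5959 to 6863 and 4877 to 5668, 798 to 2051 and 1432 to 2419, 196 to 905 and 695 to 1474, 164 to 567 and 47 to 326, 5186 to 5948 and 4631 to 5056, and 5600 to 6479 and 4769 to 5555 in the same order. The lowest counts for si308 minus Chaf1a siRNA came without Chaf1a siRNA replicate 1, and the lowest for si309 minus Chaf1a siRNA and si309 minus si308 without si309 replicate 1; a lone library was assumed to vary like the other groups.

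Same-numbered libraries deviated from their group means with correlations of -0.091 to 0.199 over 9581 genes. The highest was that of Chaf1a siRNA with Chaf1a siRNA + si308. Such correlations cannot tell whether same-numbered libraries were prepared together. With the replicate number as a block, Chac1 was called for si308 minus Chaf1a siRNA (-0.53; edgeR adjusted p = 0.037), and no other member's call changed.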

Other observations

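The list of mitochondrial chaperones and proteases, some of which are known as targets of the ATF family, also held Polg, a mitochondrial DNA polymerase gene. With Chaf1a siRNA 9 of its 12 genes fell and 1 (Polg) rose, beside 30.8% and 36.7% of all genes. The median log2 change was -0.34. Under library totals 7 fell and 2 rose. Hspa9, the mitochondrial HSP70, went from 1585 to 1067 CPM (log2 change -0.57; edgeR adjusted p = 6e-11), Hspe1 fell by 0.41, Lonp1 by 0.41 and Trap1 by 0.36. Adding si308 raised 5, or 2 to 5 over the 17 settings run, beside 9.91% of all genes. Hspa9 then rose by 0.20 against Chaf1a siRNA (edgeR adjusted p = 0.0011). Adding si309 raised 0 and lowered 0 of the 12, beside 3.76% and 7.06% of all genes. The median of the list against Chaf1a siRNA was 0.08 with each pool. Of 15 genes of glutathione synthesis and NRF2 targets, 8 were raised and 4 lowered by Chaf1a siRNA, beside 36.7% and 30.8% of all genes. Gclc, of the first step of glutathione synthesis, rose by 0.78, while Gss, of the last step, went from 115 to 48.1 CPM (log2 change -1.26; edgeR adjusted p = 5.2e-14). Gsr fell by 0.48 and Txn1 by 0.55.

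Of 15 tested interferon and double-stranded RNA response genes, 10 rose and 3 fell with Chaf1a siRNA, or 10 and 1 under library totals. Irf7 rose by 3.67 and Rsad2 by 3.45 from levels below 1 CPM. Ifitm3 fell by 1.37, from 176 to 68.2 CPM. Eif2ak2, which encodes the eIF2 kinase that senses double-stranded RNA and was picked for that role after its values were seen, went from 81.8 to 70.3 CPM (log2 change -0.21, edgeR adjusted p = 0.0068). Library totals moved the median of all genes in this comparison from 0.05 to 0.22. The value of Eif2ak2 under them is not given here, so its small fall may depend on the scaling.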
